A study of Mus musculus with 6 samples.

Results

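Mitochondrial genome transcripts were taken as all genes that the deposited table places on the mitochondrial chromosome (MT), which gave 37 of its 30914 genes. By the transcript type in the table these were 13 messenger RNAs, 2 ribosomal RNAs and 22 transfer RNAs, and the rule used no expression value. The libraries came from hearts of male C57BL/6J mice, 3 in the Ang II group and 3 given Tec as well (Ang II + Tec group), all labelled wild type and 8 weeks old. Both groups received angiotensin II (Ang II), a hormone that raises blood pressure and drives cardiac hypertrophy, at 1 μg/kg/min from an osmotic pump for 4 weeks. Mice of the Ang II + Tec group were also given tectochrysin (Tec), a plant flavonoid, at 5 mg/kg during the last 2 weeks. No mice without Ang II were sequenced, so the comparison asks how mitochondrial RNA in the Ang II-infused heart differed with and without Tec.

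The mitochondrial genome is a small circle that is transcribed from both strands into long precursors, which are cut into messenger, ribosomal and transfer RNAs mostly where a transfer RNA lies between its neighbours. Its messenger RNAs encode core subunits of respiratory complexes I, III, IV and V, its ribosomal RNAs build the mitochondrial ribosome, and its transfer RNAs serve translation inside the organelle. Every other component, from the RNA polymerase to the remaining respiratory subunits, comes from nuclear genes. In the heart, which is densely packed with mitochondria, these transcripts make up a large part of cellular RNA.

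Expression was measured as FPKM, the fragments of a gene scaled by the length of its transcript and by the total of mapped fragments, so that levels of genes of different length share a scale. Differences are log2 fold changes of Ang II + Tec against Ang II on the log2(FPKM + 1) scale, each with its standard error (SE), from a limma fit across the 13089 genes that reached 0.5 FPKM in 3 or more libraries. Called genes are those whose log2 fold change was 1 or more in size with an adjusted p-value below 0.05. The p-values set the difference between the groups against the spread between hearts, which limma moderates with values from all tested genes. With 3 mice against 3, an exact permutation p-value cannot fall below 0.1. FPKM give depth only in relative terms, from 0.949 to 1.31 of that of Ang II replicate 1.

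Before any comparison, Ang II replicate 3 stood apart from the other 2 hearts of its group. The summed FPKM of 8 fibroblast markers was 775 and 1029 in Ang II replicates 1 and 2 and 172 in Ang II replicate 3, against 141, 233 and 156 in the hearts given Tec. All 8 fibroblast markers had lower means with Tec, 5 at an unadjusted limma p-value under 0.05 and 0 called. Of all tested genes, only 20.0% had a higher mean with Tec, and 18.6% had such a p-value in either direction. The sum of 6 atrial markers ranged from 259 to 10324 FPKM with Ang II alone and from 135 to 5099 with Tec, with Myl7 and Sln listed at 0 in part of the libraries. Most of each sum was Nppa, at 5568, 9456 and 256 against 906, 3489 and 125 FPKM. The paper measured Nppa (Anp) as a gene of hypertrophy, so these sums do not stand for atrial tissue alone. Of the other atrial markers, Myl7 and Sln were highest in Ang II + Tec replicate 2, and Myl4, Dkk3 and Nr2f2 in Ang II replicate 2. The 9 ventricular cardiomyocyte markers were all above 0 in every library, and their sums overlapped, at 13446 to 16923 FPKM with Ang II alone and 14457 to 16242 with Tec. The lower fibroblast level of Ang II replicate 3 went with mitochondrial messenger RNA values near those of the Ang II + Tec group. Other mitochondrial genes of this library stayed well below that group. Among them were mt-Rnr2, at 2057 FPKM against 3492 or more, and mt-Tg, at 6.60 FPKM against 106 or more. The part of the fibroblast level in the mitochondrial values was not tested. The ventricular sums did not follow the order of the mitochondrial share. The atrial sums were highest in Ang II replicates 2 and 1 (10324 and 6259 FPKM), the libraries with the lowest shares. They were lowest in Ang II + Tec replicate 3 (135 FPKM), which had the highest share. Ang II replicate 3 broke the order, with a lower share than any Ang II + Tec library but a sum of only 259 FPKM. Ang II + Tec replicates 2 and 1 had higher sums, at 5099 and 909 FPKM. The part of atrial tissue was not tested. In whole hearts, fewer cells of a type and less RNA per cell cannot be told apart.

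All 37 mitochondrial genes passed the filter, and all 37 had a higher mean with Tec, against 20.0% of the tested genes. It was again 37 of 37 after scaling by the median of ratios or to the same nuclear sum. Quantile normalization, which fixes the values of the top ranks, gave 32 of 37 (8 of 13 messengers). Rescaling each library to the same messenger sum, which centres the messengers near 0 by construction, gave 29 of 37 (7 of 13 messengers). The 20.0% holds without rescaling and is no comparator for these counts, because each scaling also moved the other genes. Over all tested genes the median log2 fold change was -0.17 without rescaling and -0.14 with the nuclear sum. It was 0.01 for median-of-ratios values, 0.02 for quantile values and -0.44 for the messenger sum. The share of tested genes higher with Tec was not computed for these scalings. Only 2 of the 37 were called, the transfer RNAs mt-Tg and mt-Tr, against 0.084% of tested genes called higher with Tec and 0.16% called in either direction. In 26 of the 37, every Ang II + Tec library lay above every Ang II library, against 2.9% of tested genes (18.9% were lower with Tec without overlap and 21.8% were separated in either direction). An equal number, 26, had an unadjusted p-value under 0.05, against 2.09% of tested genes higher with Tec and 18.6% in either direction. The median log2 fold change was 0.38 over messenger RNAs, 1.27 over ribosomal RNAs and 1.40 over transfer RNAs, while the median over all tested genes was -0.17. These genes share 1 genome, precursors and the total of mapped fragments, so they are not independent observations.

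**Figure D1:**
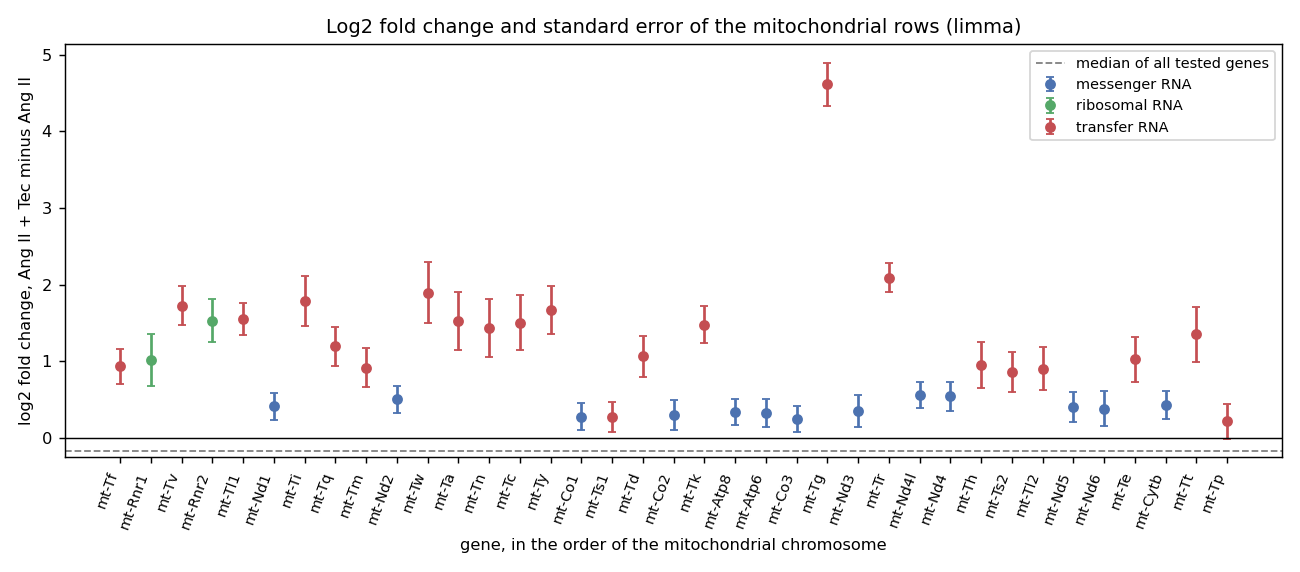
Log2 fold change of Ang II + Tec against Ang II (vertical axis) with its limma standard error (bars) for the 37 mitochondrial genes in chromosome order, coloured by kind of RNA; the dashed line is the median of all tested genes. Messenger RNAs sit between 0.25 and 0.56, and mt-Tg stands highest at 4.61.

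Without Ang II replicate 3, 22 of the 37 genes were called, none of them a messenger RNA, against 4.22% of 12900 tested genes called in either direction and 0.504% called higher with Tec. They comprised both ribosomal RNAs and 20 of the 22 transfer RNAs, while 9 of the 13 messengers had an adjusted p-value under 0.05 with a log2 fold change below 1. With libraries weighted by their fit (array weights), 19 of the 37 were called, against 3.99% of tested genes in either direction and 0.39% higher with Tec. Without Ang II replicate 3, the median log2 fold change was 0.54 over messenger RNAs, 1.66 over ribosomal RNAs and 1.71 over transfer RNAs. In the 37 genes all 3 Ang II + Tec libraries exceeded Ang II replicates 1 and 2, so each overlap between the groups came from Ang II replicate 3.

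The mitochondrial share of summed FPKM was 41.3%, 40.1% and 48.9% with Ang II alone and 51.3%, 49.6% and 52.5% with Tec. The groups did not overlap, but Ang II replicate 3 lay within 1 percentage point of the lowest Ang II + Tec library. Group means were 43.4% ± 4.74 (SD, n = 3) and 51.2% ± 1.46 (SD, n = 3), a difference of 7.74 percentage points that became 10.5 without Ang II replicate 3. With the nuclear pseudogenes of mitochondrial genes left out of the sum, the shares were 49.9%, 48.5% and 61.1% against 64.7%, 61.0% and 66.0%, and the groups overlapped. Summed FPKM outside the mitochondrial chromosome overlapped as well, at 303137 to 309678 with Ang II alone and 293051 to 303611 with Tec.

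The kinds of mitochondrial RNA differed in proportion between the groups. Messenger RNAs made up 94.3%, 94.5% and 92.6% of mitochondrial FPKM with Ang II alone and 89.8%, 90.5% and 90.3% with Tec, lower without overlap. Transfer RNAs made up 4.86%, 4.70% and 6.00% against 8.39%, 7.64% and 7.85%. Ribosomal RNAs made up 0.855%, 0.851% and 1.37% against 1.85%, 1.89% and 1.88%. Both smaller classes were higher with Tec without overlap, and these shares do not depend on how libraries are scaled. The labels describe selection of poly(A) RNA with poly-T beads but go on to name poly(A)- or poly(A)+ fractions, so the kind of library is not certain. How much of each RNA was captured depends on its tail and on RNA quality, whose part was not tested.

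The 2 called genes are neighbours on the circle, on either side of mt-Nd3. The gene mt-Tg encodes the transfer RNA for glycine (ENSMUSG00000064359, MT:9391-9458, + strand, GRCm38) and mt-Tr that for arginine (ENSMUSG00000064361, MT:9808-9875, + strand). Their sequences, from the GENCODE M21 transcripts, are shown with the anticodon in capitals. The comparison with a nuclear copy below turns on a base next to mt-Tg and on the length of the interval that holds mt-Tr.
mt-Tg: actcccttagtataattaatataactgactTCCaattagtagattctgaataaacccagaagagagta
mt-Tr: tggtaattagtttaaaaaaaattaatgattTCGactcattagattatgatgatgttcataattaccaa

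The level of mt-Tg was 2.61, 2.65 and 6.60 FPKM with Ang II alone and 106, 118 and 114 FPKM with Tec. The groups lay far apart and Ang II replicate 3 stayed with its own group. Means were 3.95 ± 2.29 and 113 ± 6.13 FPKM (SD, n = 3 each), a ratio of 28.5, and the log2 fold change was 4.61 (SE 0.28, limma adjusted p = 0.00230). The level of mt-Tr was 23.1, 22.2 and 36.2 FPKM against 109, 125 and 116 FPKM. These groups were also well separated, with means of 27.2 ± 7.84 and 117 ± 8.42 FPKM (SD, n = 3 each) and a log2 fold change of 2.09 (SE 0.19, limma adjusted p = 0.0176). Leaving out any Ang II + Tec library left 0 of all tested genes called, so both calls were lost, although the log2 fold changes were close, at 4.66, 4.58 and 4.60 for mt-Tg and 2.14, 2.04 and 2.10 for mt-Tr without replicates 1, 2 and 3. The limma adjusted p-values were then 0.0837, 0.0938 and 0.0668 for mt-Tg and 0.190, 0.191 and 0.198 for mt-Tr. Without Ang II replicate 1, mt-Tr lost its call (limma adjusted p = 0.112) and mt-Tg kept it (0.0130).

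Both genes were also compared with their neighbours. Relative to the mean of its flanking genes mt-Co3 and mt-Nd3, mt-Tg stood at 0.0220%, 0.0224% and 0.0421% with Ang II alone and 0.651%, 0.834% and 0.689% with Tec. Relative to the mean of mt-Nd3 and mt-Nd4l, mt-Tr stood at 0.531%, 0.539% and 0.630% against 1.58%, 2.08% and 1.71%. Both ratios separated the groups, Ang II replicate 3 included, and neither depends on library scaling.

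A stretch of chromosome 1 carries a nuclear copy of the part of the mitochondrial genome that holds both genes. From chr1:24611535-24616197 (GRCm38) the table lists 7 pseudogenes that follow MT:6390-11042 in the same order, on the - strand, and 11 of the 37 mitochondrial genes lie inside that stretch. Of the pseudogenes, 5 are identical to the mitochondrial sequence over the aligned length, and Gm29216 and Gm28438 differ by a single base each, A6393T in mt-Co1 and T9461C in mt-Nd3, counted on MT with the mitochondrial base first. The difference T9461C is 3 bases past the end of mt-Tg. The opening 30 bases of mt-Nd3 and of its copy are shown with the differing base in capitals.
mt-Nd3: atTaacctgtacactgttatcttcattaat
Gm28438: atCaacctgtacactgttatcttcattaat

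Between the mt-Nd3 and mt-Nd4l sequences, which enclose mt-Tr, the mitochondrial genome has 73 bases and the chromosome 1 copy 74. In each of the other 5 intervals between copied genes the lengths are equal, including the 69 bases that hold mt-Tg. The called mt-Tg thus lies beside a differing base, and mt-Tr in an interval of differing length whose extra base was not located. Transfer RNAs away from these places were also higher with Tec, though not called. In copied intervals of equal length, mt-Ts1, mt-Td and mt-Tk had log2 fold changes of 0.27, 1.07 and 1.48. Outside the copied stretch the largest was 1.90, for mt-Tw. The intervals were compared by length alone, and 483 of the 492 bases of Gm29216 were aligned, so other differences may exist. The ratio of Gm28438 to mt-Nd3 was 1.00, 1.03 and 1.02 with Ang II alone and 0.968, 0.950 and 0.971 with Tec, lower without overlap. The ratios of Gm28437 to mt-Co3 and of Gm10925 to mt-Atp6 were also lower without overlap, by smaller amounts, with means of 0.997 and 0.984 for the former and 1.04 and 1.03 for the latter. The table holds no reads, so the base that each mouse carried at these positions, how reads were placed between the copies, and the part of either in the mt-Tg and mt-Tr values were not tested. A nuclear gene named after its values were seen, Nnt, also split the groups. Its gene model ENSMUSG00000116207 was at 0 FPKM in every Ang II library and at 38.8, 32.02 and 81.9 FPKM with Tec. The other model of the same name and chromosome, ENSMUSG00000025453, was at 55.8, 44.8 and 86.4 FPKM against 27.0, 25.5 and 2.54 FPKM. Summed over both models the groups overlapped, at 44.8 to 86.4 and 57.5 to 84.4 FPKM. As background, C57BL/6J carries an Nnt deletion that the C57BL/6N substrain lacks. The study labels all mice C57BL/6J, and whether the groups shared a substrain or maternal line was not tested.

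Of all tested genes, 2.9% were higher with Tec without overlap and 21.8% were separated in either direction. The remaining 20 transfer RNAs were not called, and 18 of them did not overlap between the groups. Highest among them by level were mt-Te, for glutamate (MT:14071-14139, - strand), mt-Ts1, for serine (MT:6870-6938, - strand), and mt-Tl1, for leucine (MT:2676-2750, + strand), whose sequences are given as the most abundant of their kind, with the anticodon in capitals.
mt-Te: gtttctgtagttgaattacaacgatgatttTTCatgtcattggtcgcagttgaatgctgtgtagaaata
mt-Ts1: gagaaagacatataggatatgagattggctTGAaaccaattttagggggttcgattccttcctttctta
mt-Tl1: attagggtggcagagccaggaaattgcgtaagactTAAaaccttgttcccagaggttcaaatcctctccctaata

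The level of mt-Te was 2382, 2078 and 4539 FPKM with Ang II alone and 6145, 5081 and 6083 FPKM with Tec, a log2 fold change of 1.03 (SE 0.29, limma adjusted p = 0.217). For mt-Tl1, which lies between mt-Rnr2 and mt-Nd1, the levels were 1142, 1066 and 1677 against 4355, 3279 and 3589 FPKM, a log2 fold change of 1.55 (SE 0.21, limma adjusted p = 0.0574). Scaled to the same nuclear sum, mt-Tl1 passed (1.58, limma adjusted p = 0.0448), as it did with the replicate number as a block (1.55, limma adjusted p = 0.0462). Both were separated between the groups. The gene mt-Ts1, at 3344, 3350 and 4390 against 5006, 3547 and 4907 FPKM, overlapped and had a log2 fold change of 0.27 (SE 0.19, limma adjusted p = 0.422).

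Among the other 17 transfer RNAs, 16 did not overlap, against 2.9% of tested genes higher without overlap. The 17 had log2 fold changes from 0.22 for mt-Tp, which overlapped, to 1.90 for mt-Tw, and limma adjusted p-values from 0.0885 to 0.567. The 5 genes clustered between mt-Nd2 and mt-Co1 (mt-Tw, mt-Ta, mt-Tn, mt-Tc and mt-Ty) had log2 fold changes from 1.44 to 1.90 and were all separated. In the cluster between mt-Nd4 and mt-Nd5 (mt-Th, mt-Ts2 and mt-Tl2) the log2 fold changes were smaller, from 0.86 to 0.95, and these were separated too. No test compared the clusters with each other.

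Levels were spread by strand. All 8 transfer RNAs of the - strand lay between 304 and 4539 FPKM with Ang II alone and between 492 and 6145 FPKM with Tec. Of the 14 on the + strand, 10 had a mean under 100 FPKM, and apart from mt-Tg and mt-Tr these lay between 3.80 and 34.1 FPKM with Ang II alone and between 10.01 and 46.0 FPKM with Tec. Strand-specific counting is not stated in the sources used here, so a - strand gene cannot be told apart from RNA read across it from the + strand. Transfer RNA genes here are 59 to 75 bases long, shorter than the average insert of the libraries, and how fragments longer than a gene entered its FPKM was not tested.

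**Figure D2:**
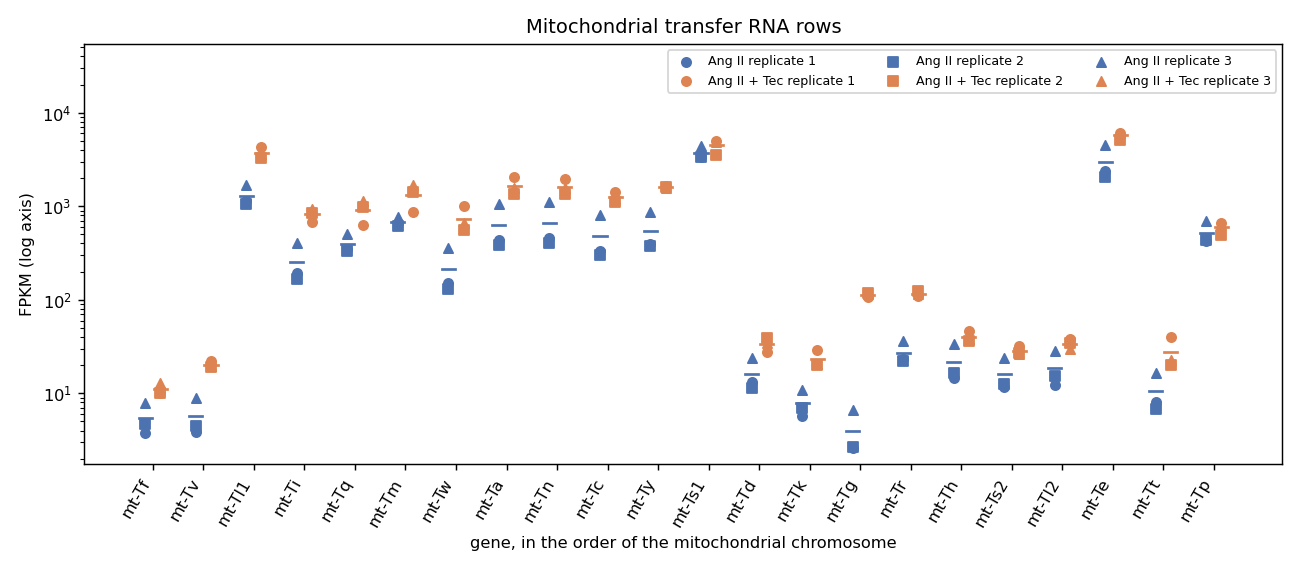
FPKM (log axis) of the 22 transfer RNAs in the order of the chromosome, in each library; marker shape gives the replicate, colour the group and horizontal lines the group means. The Ang II + Tec points lie above the Ang II points for 20 of 22, and the gap is widest at mt-Tg.

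The ribosomal RNAs were higher with Tec without overlap, but neither was called. The small-subunit RNA mt-Rnr1 (ENSMUSG00000064337, MT:70-1024) was at 789, 784 and 1902 FPKM with Ang II alone and 2034, 1951 and 2469 FPKM with Tec. Ang II replicate 3 lay just below the lowest Ang II + Tec library, and the log2 fold change was 1.02 (SE 0.34, limma adjusted p = 0.229). The large-subunit RNA mt-Rnr2 (ENSMUSG00000064339, MT:1094-2675) was at 1034, 983 and 2057 FPKM against 3874, 3492 and 3739 FPKM. Here Ang II replicate 3 stayed clearly below the Ang II + Tec group, and the log2 fold change was 1.53 (SE 0.28, limma adjusted p = 0.154). Without Ang II replicate 3 both passed, at log2 fold changes of 1.44 and 1.87 (limma adjusted p-values 0.00158 and 0.000249).

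Within the libraries the ribosomal RNAs differed from each other. The ratio of mt-Rnr2 to mt-Rnr1 was 1.31, 1.25 and 1.08 with Ang II alone and 1.91, 1.79 and 1.51 with Tec, higher without overlap. As a percentage of the messenger sum, mt-Rnr2 stood at 0.515%, 0.501% and 0.767% against 1.35%, 1.34% and 1.25%, whereas mt-Rnr1 stood at 0.392%, 0.400% and 0.709% against 0.708%, 0.747% and 0.827% and overlapped. With each library rescaled to the same messenger sum, mt-Rnr2 was called (log2 fold change 1.17, limma adjusted p = 0.00866) and mt-Rnr1 was not (0.66, limma adjusted p = 0.149). That rescaling called 7 of the 37 genes, which were mt-Rnr2 and 6 transfer RNAs, against 0.206% of tested genes called in either direction and 0.115% called higher with Tec.

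The 13 messenger RNAs ranged in mean level from 4062 to 49877 FPKM with Ang II alone and from 5226 to 59958 FPKM with Tec. None was called, with limma adjusted p-values from 0.221 to 0.419. The groups did not overlap in 4 of 13, mt-Nd2, mt-Nd4l, mt-Nd4 and mt-Cytb. Of all tested genes, 2.9% were higher without overlap and 21.8% were separated in either direction. These same 4 messengers had an unadjusted limma p-value under 0.05. Among all tested genes this held for 2.09% higher with Tec and 18.6% in either direction.

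Complex I, which passes electrons from NADH to ubiquinone, takes 7 of its core subunits from the mitochondrial genome. Its 3 separated messengers were mt-Nd2, mt-Nd4l and mt-Nd4. The level of mt-Nd2 was 11929, 11420 and 15673 FPKM with Ang II alone and 16919, 17777 and 20338 FPKM with Tec (log2 fold change 0.51, SE 0.18, limma adjusted p = 0.232). For mt-Nd4l it was 5022, 4637 and 6588 against 7650, 8114 and 7939 FPKM, the largest log2 fold change of a messenger at 0.56 (SE 0.17, limma adjusted p = 0.221). The gene mt-Nd4, whose reading frame overlaps that of mt-Nd4l on a shared transcript, was at 10691, 9927 and 15186 against 17331, 16421 and 17586 FPKM (0.54, SE 0.19, limma adjusted p = 0.232). In all 3, Ang II replicate 3 was the highest of its group and came closest to the Ang II + Tec libraries.

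The other 4 complex I messengers overlapped. The level of mt-Nd1 was 18695, 18868 and 24283 FPKM against 28736, 24065 and 29281 FPKM, a log2 fold change of 0.41 (SE 0.18). For mt-Nd3, the lowest messenger in every library, it was 3677, 3608 and 4900 against 6125, 3938 and 5615 FPKM, with a log2 fold change of 0.35 (SE 0.21). In both, only Ang II replicate 3 exceeded an Ang II + Tec library. The gene mt-Nd5 was at 7542, 6491 and 10283 against 9960, 10365 and 11441 FPKM (0.41, SE 0.20). The - strand gene mt-Nd6 was at 9067, 8334 and 14140 against 13516, 11886 and 14679 FPKM (0.38, SE 0.23), and its ratio to mt-Nd5 overlapped between the groups, at means of 1.29 and 1.26.

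Complex III takes cytochrome b, its electron-carrying core, from mt-Cytb. This messenger was at 18873, 18675 and 25691 FPKM with Ang II alone and 28615, 26371 and 29257 FPKM with Tec. The groups did not overlap, with a log2 fold change of 0.43 (SE 0.18, limma adjusted p = 0.265).

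Complex IV, cytochrome c oxidase, hands electrons to oxygen, and its catalytic subunits are encoded by mt-Co1, mt-Co2 and mt-Co3. The gene mt-Co1 was the highest messenger in every library, at 46019, 44586 and 59027 FPKM against 60867, 58017 and 60991 FPKM, with a log2 fold change of 0.28 (SE 0.18). For mt-Co2 the levels were 18990, 19473 and 27218 against 28158, 23403 and 28522 FPKM (0.30, SE 0.20). For mt-Co3 they were 20031, 20023 and 26478 against 26471, 24408 and 27523 FPKM (0.25, SE 0.17), the smallest difference among the messengers. All 3 overlapped through Ang II replicate 3, and their log2 fold changes were 0.52, 0.55 and 0.49 with the median of ratios. Relative to the messenger sum, a scaling that sets the messengers against each other, they were -0.08, -0.06 and -0.11.

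Complex V, the ATP synthase, takes 2 subunits of its proton-conducting part from mt-Atp8 and mt-Atp6, which overlap on a shared transcript. The level of mt-Atp8 was 12253, 12155 and 15246 FPKM against 16686, 14982 and 18392 FPKM, a log2 fold change of 0.34 (SE 0.17). For mt-Atp6 it was 18246, 17985 and 23558 against 26363, 21504 and 27168 FPKM (0.33, SE 0.18). Both overlapped through Ang II replicate 3. The ratio of mt-Atp8 to mt-Atp6 averaged 0.665 and 0.669, and that of mt-Nd4l to mt-Nd4 averaged 0.457 and 0.462, with overlap in both.

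**Figure D3:**
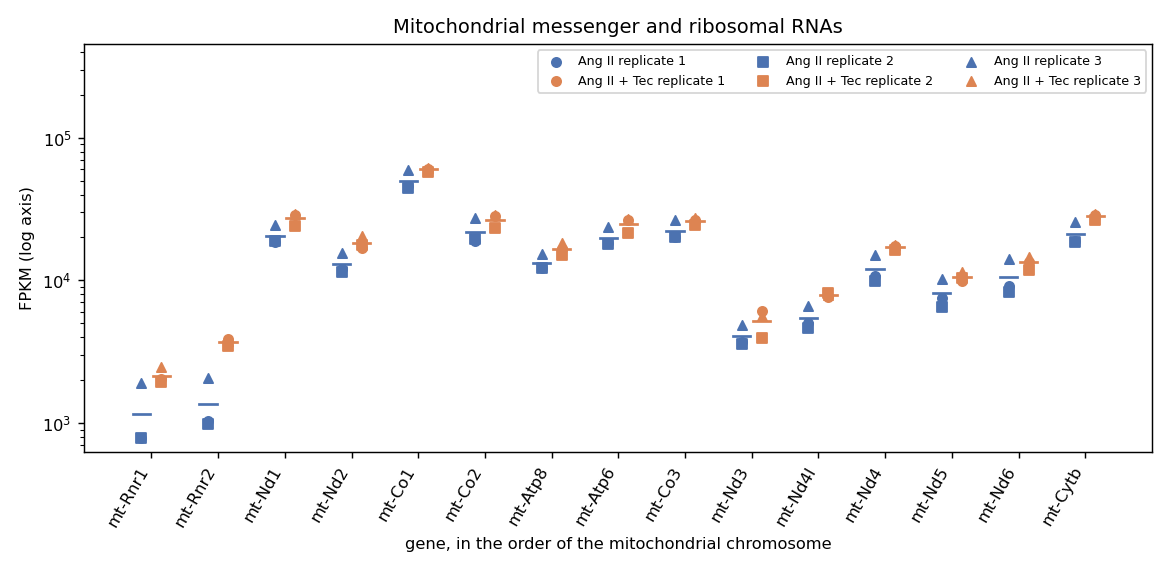
FPKM (log axis) of the 2 ribosomal and 13 messenger RNAs in each library; marker shape gives the replicate, colour the group and horizontal lines the group means. Ang II replicate 3 (triangles) lies near or among the Ang II + Tec points for the messengers, and both ribosomal RNAs are separated between the groups.

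Within the messenger pool, the shares of 4 of 13 genes did not overlap between the groups. As a share of messenger FPKM, mt-Co3 was 9.96%, 10.2% and 9.87% with Ang II alone and 9.21%, 9.34% and 9.21% with Tec, lower without overlap. The share of mt-Nd4 was 5.32%, 5.06% and 5.66% against 6.03%, 6.29% and 5.89%, higher without overlap. Shares of mt-Nd4l and mt-Cytb were likewise higher without overlap, at means of 2.44% and 2.81% for mt-Nd4l and 9.49% and 9.95% for mt-Cytb. The other 9 overlapped, among them mt-Co1 at means of 22.5% and 21.3%.

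Of the 13 messengers, mt-Nd2, mt-Co1, mt-Co2, mt-Atp6, mt-Co3, mt-Nd3, mt-Nd4l and mt-Nd4 have a listed nuclear copy, in whole or in part. All 10 nuclear pseudogenes of mitochondrial genes had higher means with Tec, against 20.0% of tested genes. By limma 0 were called and 2 had an unadjusted p-value under 0.05, against 2.09% of tested genes higher with Tec and 18.6% in either direction. Their median log2 fold change was 0.28. The 7 on chromosome 1 stood at 3679 FPKM or more in every library. The 4 that copy mt-Co2, mt-Atp6, mt-Co3 and mt-Nd4l were close to their mitochondrial counterparts, with ratios of 0.940 to 1.04. The 3 on chromosome 2, Gm13339, Gm13340 and Gm13341, are 95.9% to 97.6% identical to mt-Nd2, mt-Co1 and mt-Co2 and stood at 16.6 to 113 FPKM. Pseudogenes took 17.3%, 17.2% and 20.0% of summed FPKM with Ang II alone and 20.7%, 18.6% and 20.4% with Tec. With each mitochondrial gene summed with its copies of at least 99% identity, a choice made after seeing the data, the messenger median log2 fold change stayed at 0.38 and mt-Tg and mt-Tr were again the calls.

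**Figure D4:**
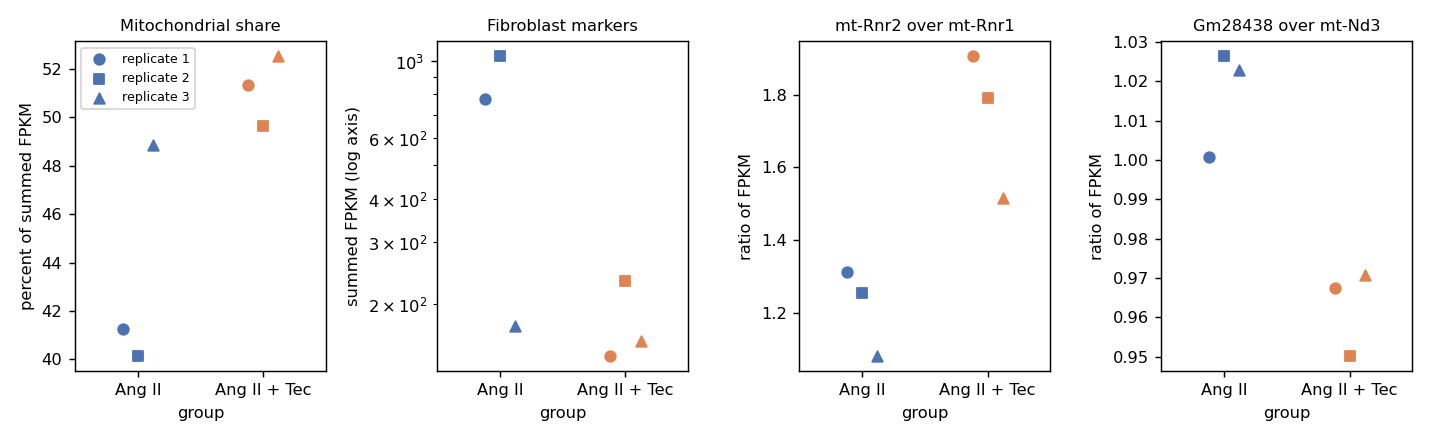
Mitochondrial share of summed FPKM (percent), summed FPKM of the 8 fibroblast markers (log axis), ratio of mt-Rnr2 to mt-Rnr1, and ratio of the pseudogene Gm28438 to mt-Nd3, each in the 6 libraries. Ang II replicate 3 sits near the Ang II + Tec group in the share and in the fibroblast markers, but with its own group in both ratios.

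No gene was called in the lists of nuclear genes that make and handle mitochondrial RNA. Among all tested genes, 20.0% had a higher mean with Tec. An unadjusted limma p-value under 0.05 was found for 2.09% higher with Tec and for 18.6% in either direction. Without overlap, 2.9% were higher and 18.9% lower. Of 20 tested genes of mitochondrial DNA transcription and replication, 6 had higher and 14 lower means, 0 were called by limma (1 in each direction at an unadjusted p-value under 0.05), and the median log2 fold change was -0.09, from -0.27 for Mterf2 to 0.33 for Tfb2m. Tfam, which packages mitochondrial DNA and starts its transcription, was at 10.1, 9.71 and 9.44 FPKM with Ang II alone and 8.39, 8.47 and 8.38 FPKM with Tec, without overlap (log2 fold change -0.19, SE 0.10, limma adjusted p = 0.318). The mitochondrial RNA polymerase Polrmt was at 3.07, 2.85 and 3.44 against 3.60, 4.23 and 3.13 FPKM and overlapped (0.17, limma adjusted p = 0.452).

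Among 39 genes of mitochondrial RNA processing and stability, 10 had higher and 29 lower means, against 20.0% of tested genes higher. By limma 0 were called, and 1 higher and 5 lower had an unadjusted p-value under 0.05 (18.6% of tested genes in either direction). The median was -0.08, from -0.64 for Mrm1, a methyltransferase of ribosomal RNA, to 0.39 for Lrpprc. Lrpprc and Slirp form a complex that stabilises mitochondrial messengers. Lrpprc was at 8.39, 7.14 and 9.17 FPKM against 12.03, 11.4 and 9.76 FPKM, higher without overlap (log2 fold change 0.39, SE 0.13, limma adjusted p = 0.230). Its partner Slirp was at 4.53, 6.39 and 5.62 against 4.44, 3.25 and 3.71 FPKM, lower without overlap (-0.44, SE 0.15, limma adjusted p = 0.232). The 2 partners differed in opposite directions, and neither passed the test. Of all tested genes, 2.9% were higher and 18.9% lower without overlap.

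A list of 23 genes held aminoacyl-tRNA synthetases, which charge transfer RNAs, and the amidotransferase subunits Qrsl1, Gatb and Gatc. Of its synthetases, Gars, Kars and Qars serve the cytosol, alone or as well. This list had 5 higher and 18 lower means, against 20.0% of tested genes higher. By limma 0 were called and 1 was higher at an unadjusted p-value under 0.05, against 2.09% of tested genes. Its median was -0.08, from -0.24 for Gars to 0.46 for Lars2. Nuclear subunits of the complexes that the mitochondrial messengers help to build centred near 0. Medians were -0.03 over 37 complex I genes, -0.10 over 9 of complex III, -0.01 over 12 of complex IV and -0.02 over 17 of complex V, with 0 called by limma in each and 1, 2, 1 and 1 lower at an unadjusted p-value under 0.05. Complex II, which has no mitochondrially encoded subunit, had a median of 0.01 over 4 genes, with 0 called and 1 lower at an unadjusted p-value under 0.05. Of all tested genes, 18.6% had an unadjusted limma p-value under 0.05 in either direction. The medians of these 5 complexes lay above the -0.17 of all tested genes and below the 0.38 of the mitochondrial messengers. Rescaling by the median of ratios raised the median of all tested genes by over 0.1, from -0.17 to 0.01, and that of the mitochondrial messengers to 0.63. Quantile normalization gave 0.02 and 0.088, and rescaling to the messenger sum -0.44 and 0.019.

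Other cell types were followed by their markers. The 8 macrophage markers had lower means with Tec, 7 at an unadjusted limma p-value under 0.05, 0 called and 6 without overlap. Of all tested genes, 20.0% had a higher mean, 18.6% had such a p-value in either direction and 18.9% were lower without overlap. Macrophage sums were 261 to 509 FPKM with Ang II alone and 179 to 194 FPKM with Tec. Sums of endothelial markers ranged from 185 to 209 against 164 to 195 FPKM, of smooth muscle and pericyte markers from 214 to 448 against 168 to 334 FPKM, and of blood markers from 248 to 1018 against 147 to 526 FPKM, all with overlap. Skeletal muscle markers summed to 1.29 to 51.1 against 5.44 to 7.55 FPKM, with Myh1 and Myh2 listed at 0 in part of the libraries, and brown adipocyte markers to 13.8 to 51.9 against 14.1 to 130 FPKM, with Plin1 and Ucp1 at 0 in part of them. Their part in the mitochondrial values was not tested.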

How the data were processed

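RNA of 6 mouse hearts was sequenced as paired-end libraries. The labels describe poly(A) selection but also name poly(A)- or poly(A)+ fractions and an adipose tissue, so the library type is not certain. The authors used Cutadapt for trimming and FastQC for quality, and the deposited values are FPKM per gene. The submitters' processing notes name HISAT2 2.0, StringTie 1.3.0 and Bowtie 0.12.2, without roles, and the build mm8. Coordinates of the 37 mitochondrial genes and the 10 pseudogenes are those of GENCODE M21 on GRCm38. The paper names a HiSeq and the labels a NovaSeq. Because FPKM hold no counts, neither a count test nor a counting interval was possible, and depth is known only in relative terms.

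Values of log2(FPKM + 1) were computed for genes with at least 0.5 FPKM in at least 3 of 6 libraries and compared between the groups by limma 3.58.1 under R 4.3.3 (linear model without covariates, eBayes with trend, Benjamini-Hochberg over all tested genes). This scale understates the change of low genes. Named are all messenger and ribosomal RNAs, called transfer RNAs, the 3 other transfer RNAs with the highest mean, and of the nuclear lists Tfam, Polrmt, Lrpprc, Slirp and the lowest and highest members. The members and lists were chosen with earlier results of these data known. Sequences of genes and pseudogenes were aligned with Biopython 1.88, tables handled with pandas 2.3.3 and figures drawn with matplotlib 3.10.9. The fit was tested on simulated data. Alternatives changed the pseudocount, filter, scaling, trend, library weights, pairing and libraries.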

Additional observations from a re-analysis of the deposited data

How the results depend on the processing

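Of 360 values of named genes under the alternatives, 329 kept direction and side of the threshold, 12 newly passed it, 8 fell short of it and 11 changed sign. The count of mitochondrial genes called, 2 as reported, was 1 without a filter on low values (mt-Tr lost, limma adjusted p-value 0.0788), 3 with scaling to the nuclear sum (mt-Tl1 added, limma adjusted p-value 0.0448), 7 after rescaling to the messenger sum and 19 with array weights, whose fit stopped before convergence (3.99% of tested genes called). Leaving out each library in turn gave counts from 0 to 22, namely 1 when Ang II replicate 1 was dropped, 22 when Ang II replicate 3 was, and 0 for each Ang II + Tec replicate. In those last 3 limma fits 0 genes were called in all, and 24, 27 and 22 mitochondrial genes had an unadjusted p-value under 0.05, against 9.39%, 18.3% and 9.03% of tested genes. The median log2 fold change of messengers, 0.38 as reported, was 0.63 with the median of ratios, 0.088 after quantile normalization and 0.019 after rescaling to the messenger sum, which sets it near 0 by construction, and ranged from 0.27 to 0.54 when each library was left out. The difference in mitochondrial share ranged from 6.10 to 10.5 percentage points when each library was left out and was 10.7 without the pseudogenes. The sign changed after quantile normalization for mt-Co2 (-0.026), mt-Atp8 (-0.11), mt-Co3 (-0.079) and mt-Nd5 (-0.055), and after rescaling to the messenger sum for mt-Co1 (-0.084), mt-Co2 (-0.061), mt-Atp8 (-0.022), mt-Atp6 (-0.030), mt-Co3 (-0.11), mt-Nd3 (-0.0084) and mt-Ts1 (-0.086). The cause of these shifts was not tested.

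Same-numbered libraries of the 2 groups correlated at -0.04, 0.43 and 0.38 in their deviations from the group means, and Ang II replicate 1 correlated best with Ang II + Tec replicate 2 (0.21), so the numbers were not taken to pair the mice. With the replicate block, 22 genes were called in place of 21, and 3 mitochondrial genes in place of 2, adding mt-Tl1 (limma adjusted p-value 0.0462), while the messenger median stayed at 0.38.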
